A study of Rattus norvegicus with 8 samples.

Results

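Signals of the enzymes and the chaperone that fold, hydroxylate and crosslink collagen were examined in primary osteoblast-like cells from rat calvaria, with and without Er:YAG laser irradiation. The members were 10 of the 34912 gene names on the array, namely the lysyl hydroxylases Plod1, Plod2 and Plod3, the prolyl 4-hydroxylase subunit P4ha1, the collagen chaperone Serpinh1, and the lysyl oxidases Lox, Loxl1, Loxl2, Loxl3 and Loxl4. Their probes were taken by name, as all rat probes whose gene name equals a member, without use of measured values. The members themselves were chosen with earlier results of these data known. This gave 15 probes, with 4 for Lox, 2 for Loxl4, 2 for Serpinh1 and 1 for each of the other genes. Cells came from the calvaria of rats 3 to 5 days old, which the methods give as Wistar rats, and were primary cells released by enzymes from bone without its periosteum, not a cell line. The non-irradiated group held 4 cultures and the irradiated group 4 cultures exposed to the laser at 3.3 J/cm2 for 60 s, and total RNA was taken at 6 h in both groups. The cultures carried the numbers 1 to 4 in each group, and each irradiated culture was compared with the non-irradiated culture of its number. The laser was applied to dishes without medium, and whether the dishes then received growth medium or osteoinduction medium, which contains ascorbic acid, is not given for the arrays in the sources used here.

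Collagen chains are modified in the endoplasmic reticulum before they fold into a triple helix. Prolyl 4-hydroxylase makes the hydroxyproline that keeps the helix stable, lysyl hydroxylases make the hydroxylysine that later takes part in crosslinks, and the chaperone HSP47, encoded by Serpinh1, binds the folded procollagen until it leaves for the Golgi. After secretion, lysyl oxidases oxidize lysine and hydroxylysine side chains, which then form the covalent crosslinks of the fibrils on which bone mineral is laid down. Heat shock factor drives Serpinh1, and hypoxia-inducible factor drives P4ha1, Plod2 and Lox, so that these genes respond to warming or to low oxygen in many cell types.

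The arrays were read in a single color, and a value here is the log2 of a probe's background-corrected signal after quantile normalization, averaged over the spots of the probe. It allows the same probe to be compared between arrays, while the levels of different probes are not comparable. Between 26543 and 30490 probes per array were well above background, and 0 member spots were saturated. Of 9 osteoblast markers, 8 were above background on all 8 arrays, and the other, Phex, was so on 1 array of each group. Markers of other tissues were also present. All 5 cartilage markers were tested, and their summed signal was 5903 in non-irradiated and 6390 in irradiated replicate 1, against 38302 to 84685 on the other 6 arrays. A sum follows its brightest probes, and here Col2a1, Acan and Comp were lowest in both replicate 1 arrays while Sox9 and Matn1 were not. The summed signal of the 5 muscle markers was 2692 and 2042 in the replicate 1 arrays and between 302 and 850 on the others. That sum rests mainly on Myh3, with log2 signals of 11.14 and 10.73 in replicate 1 and between 6.43 and 8.97 elsewhere. Myog was also highest in both replicate 1 arrays, whereas Des, Acta1 and Ckm were not. The 5 endothelium markers summed to between 7014 and 13057 in non-irradiated cells and between 7445 and 18164 in irradiated cells, with the highest sum in replicate 2. That sum rests mainly on Vwf, with log2 signals between 12.69 and 14.04. Without irradiation, Cdh5, Kdr and Tek were highest in replicate 1 and Pecam1 in replicate 4. With irradiation, Cdh5 and Kdr were highest in replicate 2, as Vwf was, but Pecam1 and Tek in replicate 1. Of 7 macrophage and leukocyte markers, 4 were above background on all 8 arrays. Their sums lay between 1291 and 1442 in non-irradiated cells and between 1099 and 1645 in irradiated cells. Csf1r and Adgre1 were each above background on 3 arrays of each group. Ptprc, which marks leukocytes, was above background on 0 non-irradiated arrays and 1 irradiated array. The part of these markers in the values of the members was not tested. In RNA from whole cultures, fewer cells of a type and less RNA per cell cannot be told apart.

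Irradiation was followed by no detectable change in the collagen enzymes and the chaperone at 6 h. All 15 probes were above background on all 8 arrays, so that each member was measured in every sample. At an unadjusted p below 0.05, the limma fit called 0 of the 15 probes, and a paired test of each probe by itself, of the kind the methods name for their other assays, also called 0. Of all 26399 probes tested, 2.56% had such a p, 1.47% higher and 1.09% lower after irradiation, a count of 676 that became 1135 without replicate 1 and 1449 without replicate 2, with the member count at 0 in both cases. At an adjusted p below 0.1, 0 of 26399 probes were called, members included (limma, Benjamini-Hochberg), and the lowest adjusted p was 0.99999. The members had 9 probes with a higher and 6 with a lower mean in irradiated cells, where 50.5% of all probes tested had a higher mean. Their median log2 difference, irradiated minus non-irradiated, was 0.0049, beside 0.0016 for all probes tested, and the single differences lay between -0.084 and 0.20. Unadjusted p-values of the members lay between 0.146 and 0.981. In 15 of 15 probes the groups overlapped, whereas 0.556% of all probes with 8 values had groups that did not.

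The precision of the 4 pairs limits what this comparison could show. Standard errors of the log2 differences were between 0.11 and 0.23. These, and every SE given below, come from the limma fit, which borrows variance from all probes tested. The plain SE of the 4 pair differences departs from them in both directions. It was 0.29 against 0.23 for Serpinh1 A_44_P322497, and 0.087 against 0.12 for Loxl2. The 95% intervals of the 15 differences reached from -0.64 to 0.56, which corresponds to folds from 0.642 to 1.47. These are the widest bounds, set by Serpinh1 A_44_P322497 and Loxl3, and others were narrower, as for Lox A_42_P585695 from -0.27 to 0.28 and for Loxl2 from -0.37 to 0.22. All members except the Loxl4 probe A_44_P1101953 had a mean difference within 0.1 of no change, that is 14 of 15 probes.

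**Figure D1:**
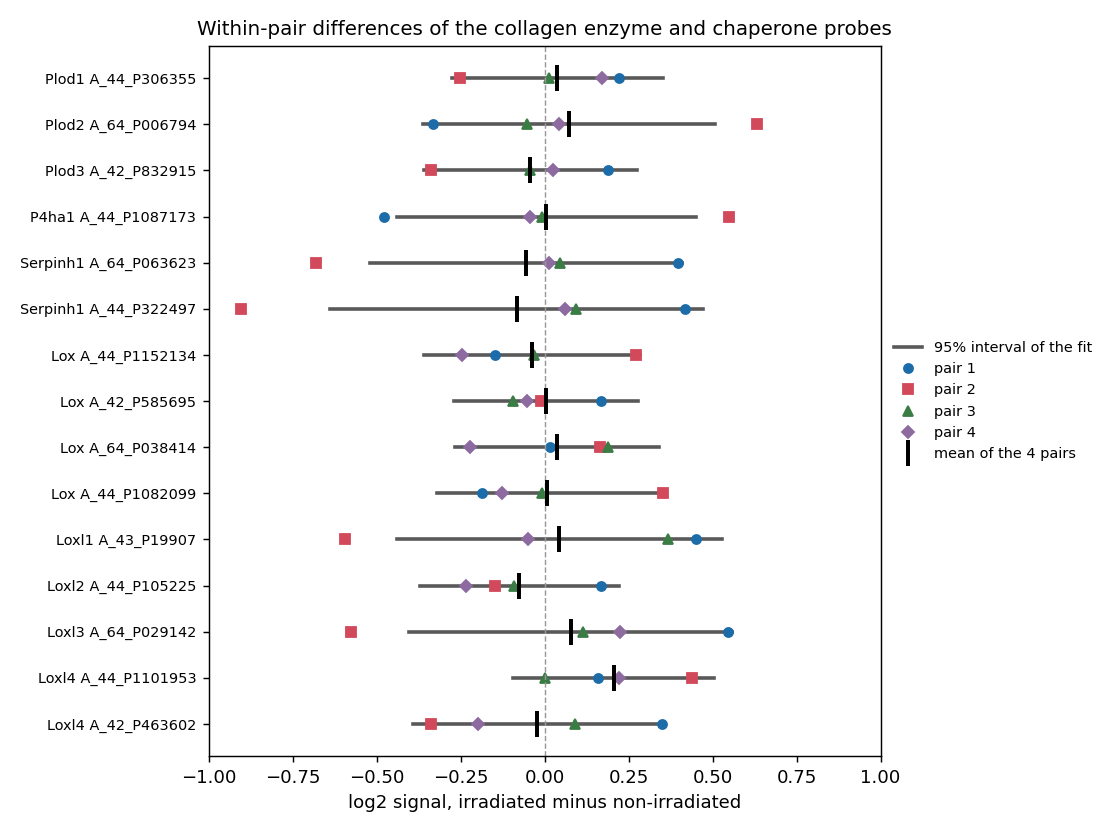
Differences in log2 signal between the irradiated and the non-irradiated array of each replicate number (symbols), their mean (black bar) and the 95% interval of the limma fit (gray line) for the 15 probes. Every interval includes 0, the means lie between -0.084 and 0.20, and pairs 1 and 2 lie on opposite sides of 0 in 13 of 15 probes.

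Among the lysyl hydroxylases, Plod2, which hydroxylates the telopeptide lysines of fibrillar collagen, had log2 signals of 14.53, 13.76, 13.77 and 13.77 in non-irradiated replicates 1 to 4 and of 14.20, 14.39, 13.72 and 13.82 in irradiated replicates 1 to 4. Non-irradiated replicate 1 and irradiated replicate 2 were the highest, and the other arrays of replicates 2 to 4 lay close together. The mean difference was 0.072 ± 0.18 (SE, n = 4 pairs), with an interval from -0.36 to 0.51. Signal was lower by 0.33 after irradiation in pair 1, higher by 0.63 in pair 2, and within 0.052 of no difference in pairs 3 and 4.

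Plod3, whose product is a lysyl hydroxylase that also carries glycosyltransferase activity, went the other way across arrays. It had log2 signals of 12.88, 13.26, 13.39 and 13.29 without and of 13.07, 12.93, 13.35 and 13.31 with irradiation. Here the same non-irradiated replicate 1 and irradiated replicate 2 were the lowest. The mean difference was -0.043 ± 0.13 (SE, n = 4 pairs), with an interval from -0.36 to 0.28. Plod1, which encodes the lysyl hydroxylase of the helical domain, had values between 13.07 and 13.54 in non-irradiated and between 13.24 and 13.66 in irradiated cells. Its difference was 0.038 ± 0.13 (SE, n = 4 pairs), with a higher value in 3 of 4 pairs.

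P4ha1, the catalytic subunit of prolyl 4-hydroxylase, had log2 signals of 13.83, 13.10, 13.16 and 12.76 in non-irradiated cells and of 13.35, 13.65, 13.15 and 12.72 in irradiated cells. As for Plod2, non-irradiated replicate 1 and irradiated replicate 2 were the highest of the 8 arrays, and the groups overlapped over nearly their whole range. The difference was lower by 0.48 in pair 1 and higher by 0.55 in pair 2, which left a mean of 0.0049 ± 0.18 (SE, n = 4 pairs). The 95% interval reached from -0.44 to 0.45. Pairs 3 and 4 differed by -0.0072 and -0.044.

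Serpinh1 was read by 2 probes that gave the same picture. The probe A_64_P063623 had log2 signals of 14.78, 15.36, 15.34 and 15.29 in non-irradiated cells and of 15.18, 14.68, 15.38 and 15.30 in irradiated cells. The probe A_44_P322497 had 12.93, 13.72, 13.57 and 13.50 without and 13.35, 12.82, 13.66 and 13.56 with irradiation. On both probes non-irradiated replicate 1 and irradiated replicate 2 were the lowest, opposite to Plod2 and P4ha1. Both probes were higher after irradiation in 3 of 4 pairs, yet had a mean below 0, because pair 2 was lower by 0.68 and 0.91. The mean differences were -0.056 ± 0.19 and -0.084 ± 0.23 (SE, n = 4 pairs). Without replicate 2 they were 0.15 and 0.19, and without replicates 1 and 2 they were 0.029 and 0.076, with an adjusted p of at least 0.863 under each (limma, Benjamini-Hochberg).

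**Figure D2:**
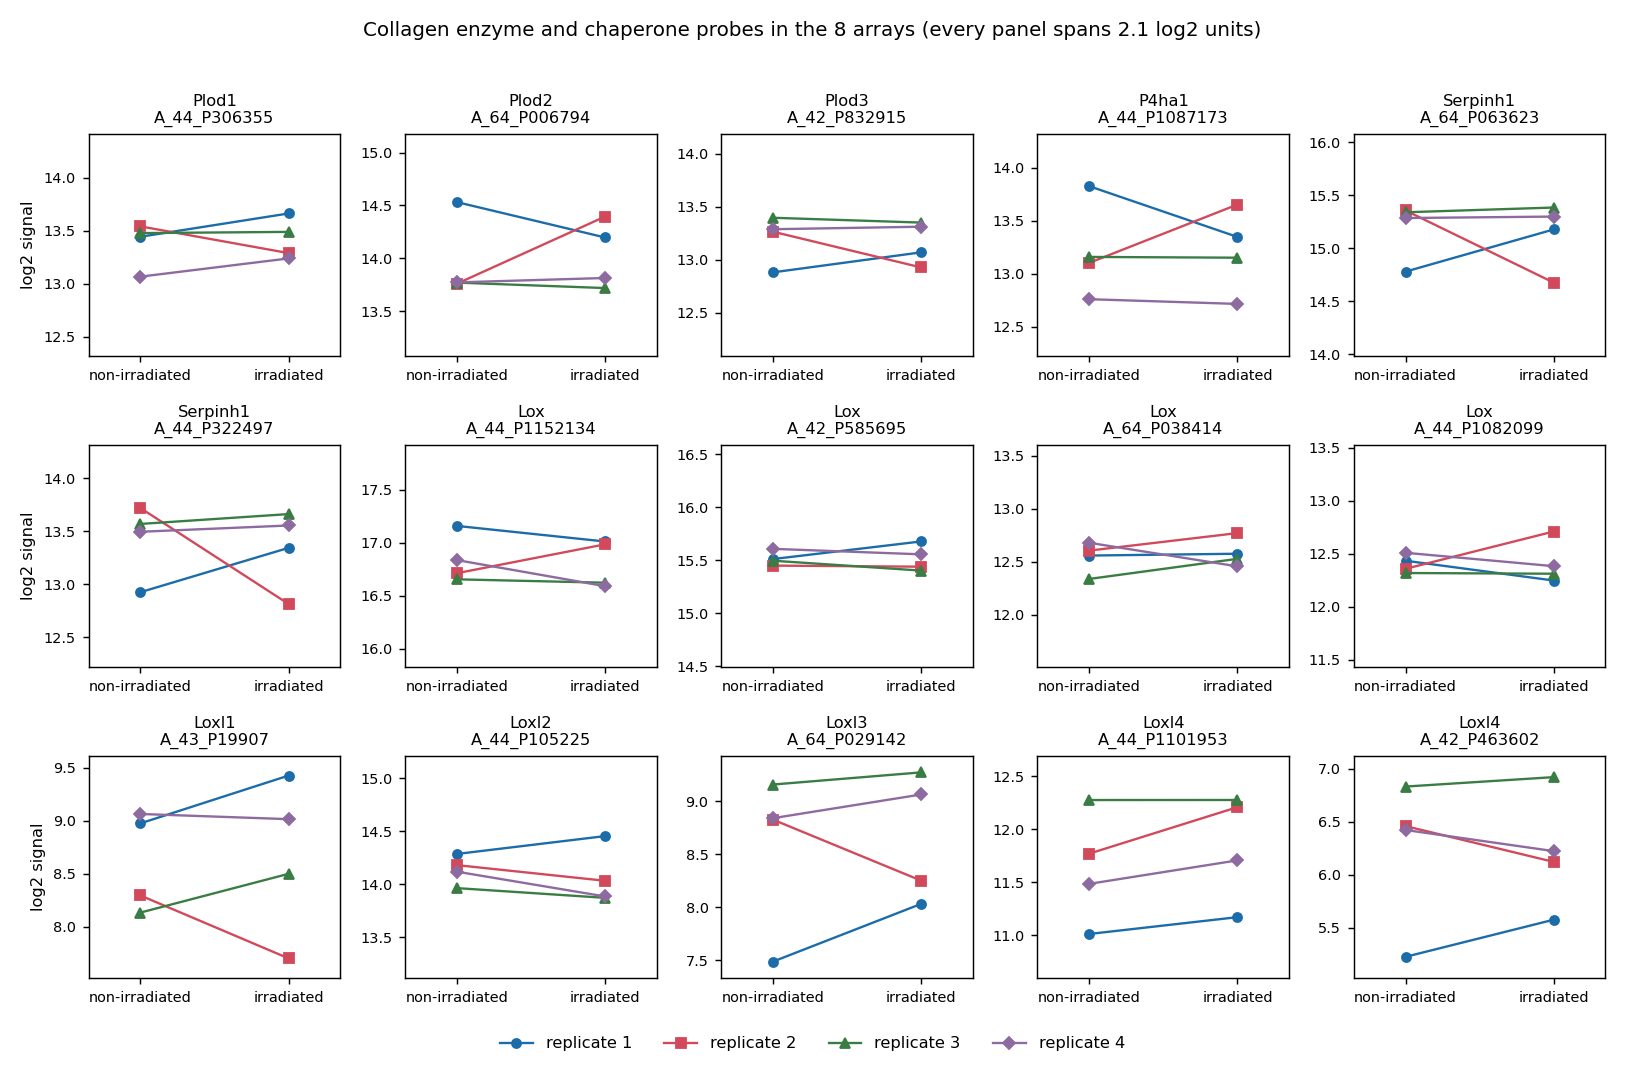
Log2 signal of each of the 15 probes in the 4 non-irradiated and the 4 irradiated arrays, with a line for each replicate number; every panel spans the same height of 2.1 log2 units. In Plod2 and P4ha1 the lines of replicates 1 and 2 cross from opposite sides with non-irradiated replicate 1 and irradiated replicate 2 high, in Serpinh1 and Plod3 they cross with both low, and the lines of replicates 3 and 4 are nearly level.

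The promoters of Plod2 and Serpinh1 are shown, which among the promoters searched were the only ones with the letters of a heat shock element. They were picked with the signals known, and a link between motif and signal was not tested. RefSeq sequences on build GRCr8 were matched by symbol for 8 of the 10 members, and the 250 bases before the annotated start were searched on both strands. Lox and Loxl2 had no matched promoter and were not searched. The motifs were a heat shock element, read as TTC, GAA and TTC with 2 free bases after each of the first and second triplets, and the core ACGTG of the hypoxia response element. Capitals mark the matches, which can be to the other strand. The Plod2 promoter lies at chr8:101964068-101964317, on the plus strand, and the Serpinh1 promoter at chr1:163062977-163063226, on the minus strand.
Plod2: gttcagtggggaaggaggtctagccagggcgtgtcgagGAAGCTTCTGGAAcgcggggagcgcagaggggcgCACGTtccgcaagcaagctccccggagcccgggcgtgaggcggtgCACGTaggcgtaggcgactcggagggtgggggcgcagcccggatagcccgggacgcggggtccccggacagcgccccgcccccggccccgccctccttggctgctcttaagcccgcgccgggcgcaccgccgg
Serpinh1: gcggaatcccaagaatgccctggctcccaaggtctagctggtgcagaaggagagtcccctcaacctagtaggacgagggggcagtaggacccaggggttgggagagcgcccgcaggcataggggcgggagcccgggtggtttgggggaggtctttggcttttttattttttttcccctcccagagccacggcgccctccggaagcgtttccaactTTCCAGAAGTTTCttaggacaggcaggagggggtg
The heat shock element began 212 bases before the start in Plod2 and 35 bases before it in Serpinh1, and was found in 0.663% of 33469 promoters of the same length. Plod2 also had 2 matches to the hypoxia core, which began 178 and 133 bases before the start and did not overlap the heat shock element. This core was found in 16.6% of all promoters. The promoters of Loxl1, Loxl3, Loxl4, Plod1, Plod3 and P4ha1 had 0 matches to either motif in this window. A match is a description of the letters and not a bound site.

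Genes that are read as responses to heat and to low oxygen were compared in the same way. Of 9 heat shock genes tested, 6 had a higher and 3 a lower mean after irradiation, and 0 had an unadjusted p below 0.05. Their median log2 difference was 0.037. Hspa1a, the inducible HSP70, had log2 signals of 11.16, 9.86, 9.54 and 9.66 in non-irradiated and of 10.88, 10.31, 9.85 and 9.96 in irradiated cells, a difference of 0.20 ± 0.15 (SE, n = 4 pairs). It was lower in pair 1 and higher in pairs 2 to 4. Among 14 hypoxia-responsive genes tested, 4 were higher and 10 lower in mean, with a median of -0.025 and 0 at an unadjusted p below 0.05. Of all probes tested, 50.5% had a higher mean. The 8 genes that respond to TGF-beta, which induces Lox and many collagens, had a median of -0.036, and again 0 had such a p.

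The lysyl oxidases differed in how much they varied between cultures. Lox was read by 4 probes, placed on rn4 chromosome 18. The probe A_44_P1152134 had log2 signals of 17.16, 16.71, 16.66 and 16.84 in non-irradiated cells and of 17.01, 16.99, 16.62 and 16.59 in irradiated cells. Both replicate 1 arrays were the highest, and the mean difference was -0.038 ± 0.13 (SE, n = 4 pairs). The other probes of Lox gave differences of 0.0028, 0.037 and 0.0081, with ranges over the 8 arrays between 0.28 and 0.46 on the log2 scale. The 4 probes did not share an order of the arrays, since A_42_P585695 was highest in irradiated replicate 1 while A_64_P038414 and A_44_P1082099 were highest in irradiated replicate 2. Loxl2, which crosslinks basement membrane collagen IV, was the member besides Lox with both replicate 1 arrays highest. It had values between 13.96 and 14.28 without and between 13.87 and 14.45 with irradiation, and its difference was -0.076 ± 0.12 (SE, n = 4 pairs), with a lower value in 3 of 4 pairs.

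Loxl1, which is needed for elastic fibers, and Loxl3 were each read by 1 spot of 1 probe. Loxl2 and both Loxl4 probes were also read by 1 spot each, and the other member probes by 2 to 10. The 60 bases of the Loxl1 and Loxl3 probes are given because the genes are paralogs and the signal of each rests on this stretch alone. The Loxl1 probe lies at chr8:62088318-62088377 on the minus strand and the Loxl3 probe at chr4:117261532-117261591 on the plus strand of rn4, as the array's design gives them.
Loxl1: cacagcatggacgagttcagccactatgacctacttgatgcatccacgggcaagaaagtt
Loxl3: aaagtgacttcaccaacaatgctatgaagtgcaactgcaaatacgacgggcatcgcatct
Among probes of different members the longest run of shared bases was 8, over 97 pairs of probes, and the Loxl1 and Loxl3 probes belong to these. The probes were compared only with each other and not with the transcripts of the paralogs. Whether a probe also reads a paralog was therefore not tested. Loxl1 had log2 signals of 8.98, 8.29, 8.13 and 9.06 in non-irradiated and of 9.43, 7.70, 8.50 and 9.01 in irradiated cells. Replicates 1 and 4 were high in both groups and replicates 2 and 3 low, and the difference was 0.044 ± 0.20 (SE, n = 4 pairs). Loxl3 had 7.49, 8.82, 9.16 and 8.84 without and 8.03, 8.25, 9.27 and 9.06 with irradiation, so that both replicate 1 arrays were the lowest. Its difference was 0.077 ± 0.20 (SE, n = 4 pairs). Over the 8 arrays Loxl1 spanned 1.72 and Loxl3 1.79 on the log2 scale, or 3.31-fold and 3.45-fold.

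Loxl4 held the largest mean difference of the 15 probes and also a disagreement between its probes. Each of its 2 probes was read by 1 spot per array. The probe A_44_P1101953 had log2 signals of 11.01, 11.77, 12.28 and 11.48 in non-irradiated cells and of 11.17, 12.21, 12.28 and 11.71 in irradiated cells. It was higher after irradiation in 4 of 4 pairs, by 0.16, 0.44, 0.00062 and 0.22, the only member probe with 4 pairs in the same direction. The mean was 0.20 ± 0.12 (SE, n = 4 pairs), a 1.15-fold difference with an interval from 0.936-fold to 1.42-fold. An exact two-sided sign-flip permutation test over the 4 pairs gave p = 0.125, the smallest that 4 pairs allow. Of all probes, 3.84% were higher and 3.66% lower in 4 of 4 pairs. The other probe of Loxl4, A_42_P463602, had 5.23, 6.46, 6.83 and 6.42 in non-irradiated and 5.58, 6.12, 6.92 and 6.22 in irradiated cells, a difference of -0.024 ± 0.15 (SE, n = 4 pairs), with higher values in 2 of 4 pairs. Both probes were lowest in the replicate 1 arrays and highest in replicate 3.

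The spread of the pair means was set beside the spread of the within-pair differences, which also holds array noise. For arrays that vary independently, a mean of 2 spreads less than their difference, so equal spread is not a neutral mark. For Loxl1, Loxl2, Loxl3 and both probes of Loxl4, the SD of the 4 pair means was above the SD of the 4 within-pair differences, that is 5 of 15 probes. These 5 were also the member probes read by 1 spot, and the count among all probes is not given. The SD of the pair means was 0.64 for Loxl3 and 0.57 for Loxl1, against 0.47 and 0.48 for their differences. Serpinh1 had the reverse, with 0.19 and 0.22 for the pair means and 0.45 and 0.57 for the differences on its 2 probes. The median over the members was 0.20 for the pair means and 0.24 for the differences, beside 0.25 and 0.31 for all probes tested.

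**Figure D3:**
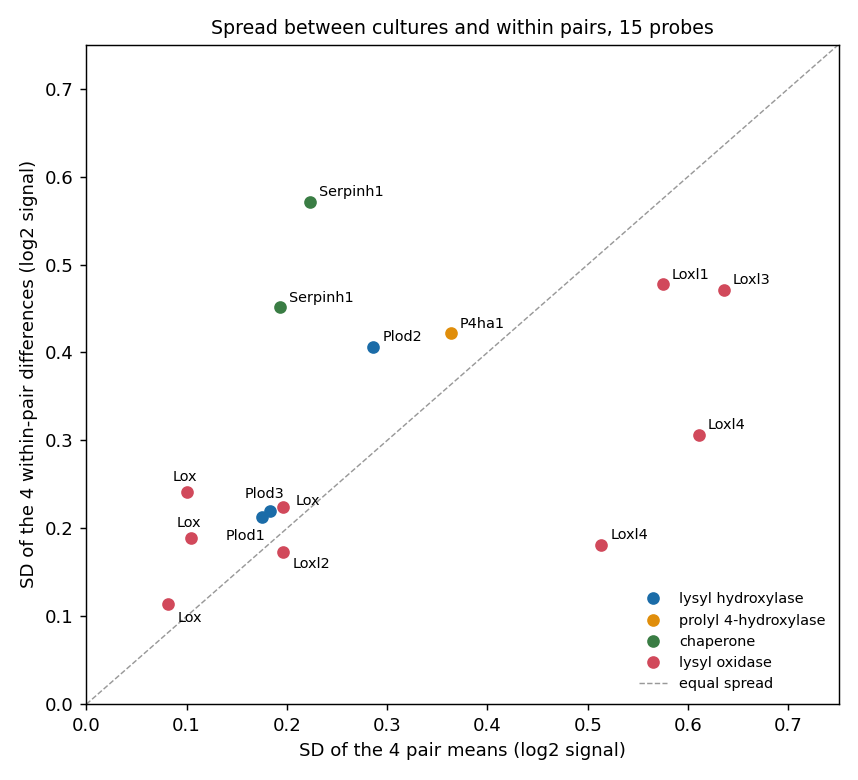
SD of the 4 pair means (x axis) against the SD of the 4 within-pair differences (y axis), both in log2 signal. The 15 probes are colored by enzyme class, and the dashed line marks equal spread, which is not a neutral mark. Loxl1, Loxl3 and the 2 Loxl4 probes lie to the right, between 0.51 and 0.64 for the pair means. The 2 Serpinh1 probes lie well above the line, with 0.45 and 0.57 for the differences.

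Non-irradiated replicate 1 and irradiated replicate 2 stood apart from the other arrays of their groups. Over all probes, the deviations of these arrays from their group means correlated at 0.437, while those of replicate 2 in the 2 groups correlated at 0.0553 and those of replicates 1, 3 and 4 at 0.608, 0.570 and 0.749. The probes are not independent replicates, so these values are a description. In the members, non-irradiated replicate 1 and irradiated replicate 2 were the 2 highest arrays for 2 probes (Plod2 and P4ha1) and the 2 lowest for 3 (Plod3 and both of Serpinh1). Of all probes, 17.3% had these arrays highest and 16.2% lowest. The 5 are 33.3% of the member probes, near the 33.5% of all probes with such a pattern, so the pattern was not particular to the collagen enzymes. Pairs 1 and 2 had opposite signs in 13 of 15 member probes, and in 73.9% of all probes. Within-pair differences of the members reached 0.54 and 0.91 in pairs 1 and 2 and stayed within 0.37 and 0.25 in pairs 3 and 4. What set these arrays apart was not tested.

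The wider set of collagen genes held 44 genes for modification and folding, export, propeptide removal, and the substrates with their partners, of which 41 were tested. After irradiation 20 had a higher and 21 a lower mean, where 50.5% of all probes tested were higher. The median log2 difference was -0.0038, and 0 of these genes had an unadjusted p below 0.05. Without replicate 2 the count was 1, for Lum, which encodes the collagen-binding lumican, with a log2 difference of 0.45 (limma, adjusted p = 0.863). Of the 15 genes for modification and folding, 7 were higher and 8 lower. Of 5 export genes 1 was higher and 4 were lower, of 6 propeptide-removal genes 4 were higher and 2 lower, and of 15 substrates and partners 8 were higher and 7 lower. Col1a1 and Col1a2, the chains of type I collagen, differed by -0.082 ± 0.11 and -0.025 ± 0.12 (SE, n = 4 pairs).

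Some partners of the members in the endoplasmic reticulum had the array pattern of Serpinh1, namely 7 of the 15 genes for modification and folding and 2 of the 5 export genes. This pattern was found in 16.2% of all probes. P4hb, the protein disulfide isomerase that forms prolyl 4-hydroxylase together with the P4ha subunits, had log2 signals of 10.52, 11.85, 11.90 and 11.99 in non-irradiated and of 11.32, 10.42, 11.98 and 12.12 in irradiated cells. P4ha2, the alternative catalytic subunit, had 10.82, 11.71, 11.74 and 11.64 without and 11.39, 10.68, 11.86 and 11.74 with irradiation. In both genes non-irradiated replicate 1 and irradiated replicate 2 were the lowest, which is opposite to P4ha1. Their mean differences were -0.11 ± 0.35 and -0.057 ± 0.26 (SE, n = 4 pairs). In all, 11 of the 41 genes had these arrays lowest, beside 16.2% of all probes, among them Colgalt1, Fkbp14, Mia3 and Sec24d. Against this, 1 gene, P3h1, had them highest, beside 17.3% of all probes. Both directions together make 29.3%, beside 33.5% for all probes.

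Genes of the substrate and propeptide-removal groups in part followed the replicate number. Both replicate 1 arrays were the 2 highest for 16 of the 41 genes and the 2 lowest for 3, or 46.3% in all, beside 24.2% of all probes. Among the 15 member probes they were the 2 highest for 2 and the 2 lowest for 3, or 33.3%. A share of all probes for the highest alone is not given. The 16 genes included 9 of the 15 substrates and partners and 4 of the 6 propeptide-removal genes. Col3a1, the chain of type III collagen, had 17.84 and 17.81 in replicate 1 and between 16.98 and 17.38 on the other arrays. Adamts2, which removes the amino-terminal propeptide, had 11.54 and 11.34 in replicate 1 and between 9.74 and 10.20 elsewhere. Eln, which encodes the elastin that lysyl oxidases also crosslink, had 13.94, 11.76, 11.06 and 10.19 in non-irradiated and 14.08, 12.19, 11.21 and 10.18 in irradiated cells. The SD of its pair means was 1.63, and its mean difference was 0.18 ± 0.12 (SE, n = 4 pairs). The replicate 1 arrays are also those with the lowest Col2a1, Acan and Comp and the highest Myh3 and Myog. This was not so for Sox9, Matn1, Des, Acta1 or Ckm, and the part of these markers was not tested.

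The genes of the wider set with the smallest p in each direction were Eln and Ppib among those higher, and Fbln5 and P4ha3 among those lower. Ppib, a cyclophilin of the prolyl 3-hydroxylation complex, differed by 0.080 ± 0.11 (SE, n = 4 pairs). Fbln5, an elastic fiber protein that binds lysyl oxidases, differed by -0.17 ± 0.12 (SE, n = 4 pairs). It was lower in 4 of 4 pairs, where 3.66% of all probes were. Its pairs 1 to 4 differed by -0.0025, -0.30, -0.32 and -0.071, so that pair 1 was nearly level. P4ha3, a further catalytic subunit of prolyl 4-hydroxylase, differed by -0.11 ± 0.14 (SE, n = 4 pairs).

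**Figure D4:**
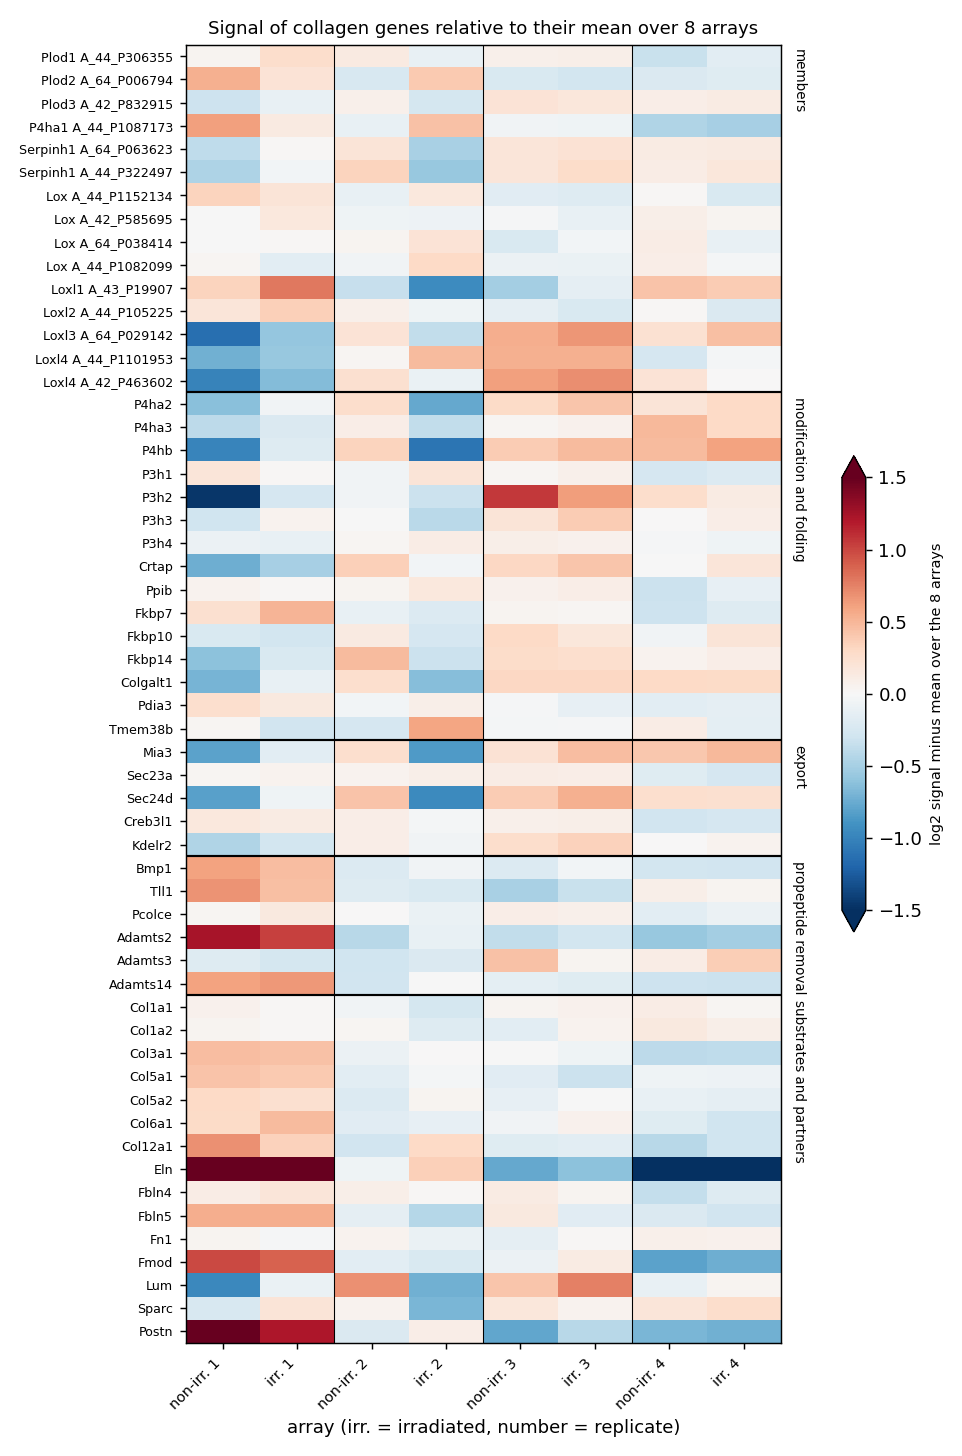
Log2 signal of the 15 member probes and of 41 further collagen genes minus the mean of each over the 8 arrays (red above, blue below the mean; darker colors beyond 1.5 are clipped), with the arrays of a replicate number side by side. Serpinh1, P4ha2, P4hb, Mia3 and Sec24d are low in non-irradiated replicate 1 and irradiated replicate 2, whereas Eln, Fmod, Postn and Adamts2 are high in both replicate 1 arrays.

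The probes most like the Lox probe A_44_P1152134 over the 8 arrays were those of Pop1, Spats2 and Ssx2ip, with Pearson r of 0.985, 0.983 and 0.981 and Spearman rho of 0.929, 0.929 and 0.952. The 8 arrays share 4 culture numbers and the array differences described above, and 91 of 26250 probes, or 0.347%, had an r above 0.95. The likeness is to this probe and is not shown for Lox as such, since its r with the other Lox probes was 0.309, 0.520 and 0.347 (rho 0.310, 0.548 and 0.238).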

How the data were processed

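Cy3-labeled RNA of each culture, 200 ng as input, went onto an array of its own. Per the labels, the authors took the spot intensity with Agilent Feature Extraction 11.0.1.1, which removes background and trends within an array. A deposited table of quantile-normalized log2 values lists 24029 probes (12 of the 15 member probes) and correlated with the intensities at r between 0.974 and 0.977 over probes.

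Log2 signals were quantile normalized over 58717 rat spots without outlying spots (20 of the members) and averaged per probe. Probes well above background in over 50% of their spots on all 4 arrays of a group passed (26404), and 26399 could be fitted. Irradiation was tested two-sided with limma 3.58.1 in R 4.3.3, blocking on replicate number, with Benjamini-Hochberg adjustment over all of them, after a check on simulated data. File names put both arrays of a number on the same animal, and within-number deviations correlated at 0.608, 0.0553, 0.570 and 0.749. No label states that numbers mark separate animals, and p-values may then measure only the spread between cultures. All arrays shared 1 slide and 1 scan, in columns that differed between the groups, so that position and irradiation cannot be told apart.

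The members and lists were chosen with earlier results of these data known. Named were all member probes, the 2 smallest p per direction in the wider list (for a gene, its probe of highest mean signal), the 3 genes most like Lox, and markers whose levels are described. Other genes were named after their values were seen. Gene names and rn4 probe positions are those of the array's design, and exon annotation is not given here. The settings tried besides were the 75th percentile as scale, normexp (offset 50), no filter or a filter on all 8 arrays, the deposited log2 values, outlying spots kept, each replicate left out, no block, a random block, a trended and robust prior, a paired t-test per probe (which the methods name for other assays; for the arrays they name limma), averaged probes of a gene, and, chosen after seeing the data, replicates 1 and 2 left out together.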

Additional observations from a re-analysis of the deposited data

Results flagged for a closer look

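For 3 of 38 groups of 4 arrays over the named probes, or 7.89%, the array at the end of the group lay far from the other 3, where chance gives about 5%. Plod2 reached 14.53 in non-irradiated replicate 1, while replicates 2 to 4 of this group had 13.76 to 13.77. Serpinh1, on probe A_64_P063623, had 14.78 in the same array, and 15.29 to 15.36 in its replicates 2 to 4. Ppib had 12.65 in non-irradiated replicate 4, and 13.00 to 13.03 in replicates 1 to 3.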

How the results depend on the processing

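The count of member probes with an unadjusted p below 0.05 stayed at 0 under all 15 alternatives, and the count over all probes with an adjusted p below 0.1 stayed at 0 (limma). The count of all probes with an unadjusted p below 0.05 was 676, and became 250 with normexp, 1663 without a filter, 449 with the filter on all 8 arrays, 292 with the deposited log2 values, 380 with the trended and robust prior, 251 without the replicate block, 1657 without replicates 1 and 2, and between 475 and 1449 when each replicate was left out, with 1135 without replicate 1 and 1449 without replicate 2. The count for the wider collagen list was 0, and between 0 and 1 when each replicate was left out, where the 1 gene was Lum without replicate 2 (log2 difference 0.45, adjusted p = 0.863).

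Of 282 log2 differences of the named probes under the alternatives, 251 kept their direction and 31 turned, none of them past 0.19 in size or with an adjusted p below 0.863. Scaled to the 75th percentile, the difference was -0.0013 for Lox A_42_P585695, -0.0035 for Lox A_44_P1082099 and -0.0012 for P4ha1 A_44_P1087173. With normexp, the difference was -0.018 for Lox A_42_P585695 and -0.00020 for Lox A_44_P1082099. With the deposited log2 values, the difference was 0.0023 for Loxl4 A_42_P463602. Without replicates 1 and 2, the difference was -0.073 for Lox A_42_P585695, -0.016 for Lox A_64_P038414, -0.066 for Lox A_44_P1082099, -0.0050 for Plod2 A_64_P006794, -0.026 for P4ha1 A_44_P1087173, 0.029 for Serpinh1 A_64_P063623 and 0.076 for Serpinh1 A_44_P322497. When each replicate was left out in turn, the probes that turned ranged from -0.14 to 0.031 for Lox A_44_P1152134, from -0.052 to 0.035 for Lox A_42_P585695, from -0.013 to 0.12 for Lox A_64_P038414, from -0.11 to 0.073 for Lox A_44_P1082099, from -0.092 to 0.26 for Loxl1 A_43_P19907, from -0.079 to 0.29 for Loxl3 A_64_P029142, from -0.15 to 0.080 for Loxl4 A_42_P463602, from -0.023 to 0.13 for Plod1 A_44_P306355, from -0.11 to 0.21 for Plod2 A_64_P006794, from -0.12 to 0.056 for Plod3 A_42_P832915, from -0.18 to 0.17 for P4ha1 A_44_P1087173, from -0.21 to 0.15 for Serpinh1 A_64_P063623, from -0.25 to 0.19 for Serpinh1 A_44_P322497 and from -0.21 to 0.0069 for P4ha3 A_64_P132876.

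What turned them was not tested, and 4 arrays per group limit how precise each value is. Loxl2 and Loxl4 A_44_P1101953 were the member probes that kept their direction under all 15 alternatives. Each was read by 1 spot per array.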
